A study of Mus musculus with 16 samples.

Results

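Control line 1 is 1 of 4 non-selected lines kept beside 4 lines of mice bred for high voluntary wheel running (High Runner, HR), and its vomeronasal organ (VNO) was compared with that of the 3 other Control lines, lines 2, 4 and 5. Its members were chosen by the line number in the sample titles, which gave 2 of the 16 RNA-seq libraries, 1 of females and 1 of males, against 6 libraries of the other Control lines. All lines descend from the outbred strain Hsd:ICR, the mice were 12-week-old adults of generation 88, and each library was made from the pooled VNOs of 3 mice, with no siblings among them. Control lines 1, 2, 4 and 5 were bred by random choice within families, and HR lines 3, 6, 7 and 8 by choice of the highest runners within families. No line carried a transgene or received a treatment as far as the labels and methods state.

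The VNO is a paired tube at the base of the nasal septum that detects pheromones and other social chemical signals. Its sensory neurons are known to lie in an apical layer, which expresses V1R receptors with the G protein subunit Gnai2, and a basal layer, which expresses V2R receptors with Gnao1 and, in many cells, nonclassical MHC molecules of the H2-Mv family. Each neuron expresses very few receptor genes of the large *Vmn1r* and *Vmn2r* families, which lie in clusters on several chromosomes and vary between mouse strains. In bulk tissue, fewer neurons that express a receptor and less RNA per neuron cannot be told apart.

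The line 1 libraries were the deepest of their sex, with 70875276 reads counted on genes in females and 67406690 in males, against 15998552 to 53348993 in the other Control libraries. Levels are given as CPM, the usual scaling of a read count to library size, after TMM normalization, and, where genes are compared, as RPKM, which also divides by gene length. The labelled tissue was checked against neuron markers. *Omp*, the marker of mature olfactory and vomeronasal neurons, stood at 1880 CPM in line 1 females and 2327 in males, within the 1260 to 2594 of the other Control libraries (log2 fold change 0.10, adjusted p = 0.943). *Gnao1* (435 and 450 CPM against 303 to 455, adjusted p = 0.831) and *Gnai2* (1094 and 1567 CPM against 712 to 1480, adjusted p = 0.784) did not pass the test either, and *Trpc2*, the cation channel of VNO neurons, was listed at 0 in all 16 libraries of the count tables. The RPKM tables give *Trpc2* 324 in line 1 females and 381 in males, within the 263 to 417 RPKM of the other Control libraries, so the tables differ on this gene and its count of 0 does not show that it was absent. The 4 Y-linked genes examined were at most 0.205 CPM in any female library and at least 24.8 CPM in any male library. *Xist*, the RNA of the inactive X chromosome, was at 1697 CPM in line 1 females, and the line 1 male library held 3.94 CPM against 0.355 to 0.875 in the other male libraries.

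Which genes set line 1 apart was asked across the 8 Control libraries in a model with sex and line 1. Of 16880 genes tested, 17 (0.101%) had an adjusted p under 0.05 (Benjamini-Hochberg, quasi-likelihood test of edgeR), 8 higher and 9 lower in line 1. They were a voltage-gated potassium channel and a silent potassium channel subunit, 3 vomeronasal receptors, a pair of neighbours on chromosome 19, 3 long noncoding RNAs, 1 pseudogene and 6 other protein-coding genes. The higher genes were *Vmn2r23*, *Gif*, *Ceacam2*, *Miat*, *Ms4a2*, *4931428L18Rik*, *S100g* and *Vmn1r235*. The lower genes were *Kcnh2*, *Vmn2r19*, *4831440E17Rik*, *Znf41-ps*, *Sycp1*, *4930570G19Rik*, *Kcns2*, *Lyrm7* and *Sh3pxd2b*. They lay on 11 chromosomes, and no 3 of them were neighbours. With the line number as a replicate block, 191 genes passed with line as a fixed term, all 17 among them, and 12 passed with line as a random effect in limma-voom, 7 of the 17 among them. With the libraries of each line summed, so that 1 line stood against 3, 0 of 17780 genes passed in edgeR and 371 had an unadjusted p under 0.05. With lines as units, an exact permutation test of 1 line against 3 cannot give a p below 0.25, so the p-values measure the spread between libraries and not between founder populations.

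**Figure D1:**
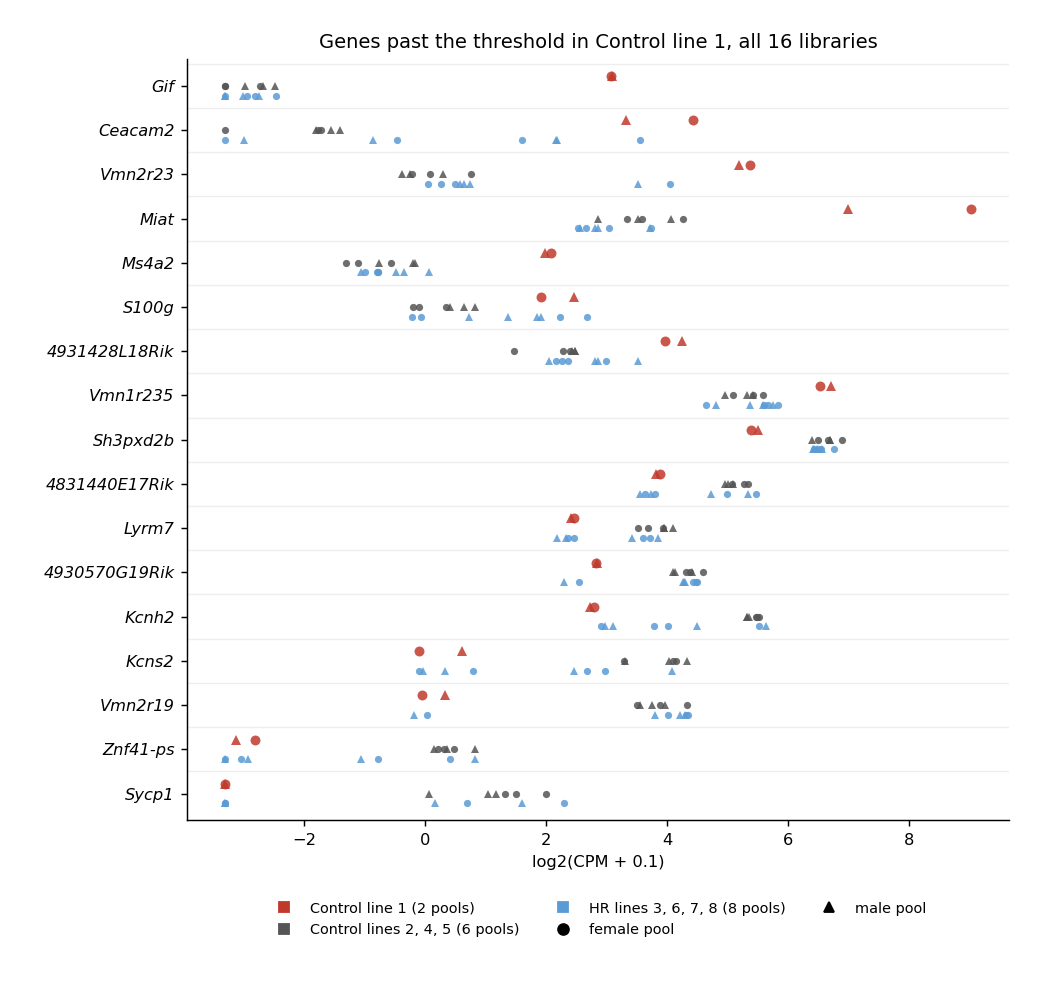
Expression of the 17 genes that passed the test, as log2(CPM + 0.1), with a point for each of the 16 libraries, coloured by line 1, other Control lines and HR lines and shaped by sex. The line 1 points lie outside the other Control points of their sex at every gene, for instance at 40.9 and 36.2 CPM for *Vmn2r23* and at 0 for *Sycp1*.

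Beyond the called genes, the ranges of the libraries were compared. The line 1 library lay above all 3 other Control libraries in both sexes at 1890 genes (11.2% of those tested) and below them in both at 1213 (7.19%). An unadjusted p under 0.05 was found for 1118 genes (6.62%), 668 higher and 450 lower. With lines 2, 4 and 5 in place of line 1, 1516, 1604 and 2615 genes had such a p, so line 1 had the fewest. The median log2 difference of all genes was 0.00485, which TMM normalization sets near 0. All 17 called genes lay outside the range in both sexes, and at 9 of them, 7 higher and 2 lower, line 1 also lay outside all 7 other libraries of the sex, HR lines included.

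The lower level of *Kcnh2* had the smallest p of the comparison. *Kcnh2* (chromosome 5, 24319589 to 24351604, minus strand, GRCm38) encodes the pore subunit of the ERG1 voltage-gated potassium channel, which repolarises excitable cells. It stood at 6.80 CPM in line 1 females and 6.49 in males, while the other Control libraries ran from 39.7 to 45.9 with a median of 42.3. The groups did not come near each other, and the other Control lines lay within a narrow range. The level was 6.37-fold lower in line 1 (log2 fold change -2.67, SE 0.0956, adjusted p = 9.5e-05, n = 2 and 6 libraries). Among the HR lines it was 11.04 CPM in line 3 and 7.54 in line 8, 19.3 in line 7, and 47.5 in line 6. On the mean log2 CPM, lines 3 and 8 were nearer to line 1 than to the other Control lines, line 7 lay between, and both levels occurred in both selection groups. Of 33 other genes tested within 1 Mb, 6 lay above and 9 below the range in both sexes, beside 11.2% and 7.19% of all genes. An unadjusted p under 0.05 was found for 8 of the 33, beside 6.62% of all genes, and 0 were called. *AI506816* was at 0.113 and 0.0433 CPM against 0.0745 to 8.50 (log2 fold change -6.06, adjusted p = 0.632), and its female value lay inside that range. *Abcb8*, a mitochondrial transporter next to it, was at 41.7 and 38.7 CPM against 27.1 to 34.0, above the range in both sexes but not called. All 75-nucleotide words of *Kcnh2* transcripts occur in no other annotated gene, and the gene overlaps *Gm15589* on the other strand.

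A RefSeq promoter of *Kcnh2* is shown because the gene led the comparison. It is the RefSeq reference on GRCm38.p6 (chr5:24329542-24329841, minus strand), not that of any line, from 250 bases before a RefSeq transcript start to 50 after it. That start lies inside the gene as placed above, whose far end on the minus strand is 24351604, so the window belongs to a start within the gene. The GC box (GGGCGG) was searched on both strands, and so were the TATA box (with the letters TATAAA), the CCAAT box and the E-box of clock factors (CACGTG). The capitals mark matches.

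Kcnh2: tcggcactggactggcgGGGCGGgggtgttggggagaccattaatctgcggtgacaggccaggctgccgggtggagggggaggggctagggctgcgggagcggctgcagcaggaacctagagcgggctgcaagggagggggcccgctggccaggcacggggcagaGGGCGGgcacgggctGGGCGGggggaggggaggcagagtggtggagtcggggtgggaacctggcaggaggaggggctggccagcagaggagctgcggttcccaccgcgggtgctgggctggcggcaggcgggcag

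GGGCGG occurred 3 times in this window, which was 74.3% G and C, and the motif occurred at least once in 35.9% of 32544 RefSeq promoters of the same length. A match is a description of letters and does not show a bound factor.

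A further potassium channel gene was lower in line 1. *Kcns2* (chromosome 15, 34837355 to 34843407) encodes a subunit that forms no channel alone and modifies others. It was at 0.83 CPM in line 1 females and 1.43 in males, against 9.64 to 20.001 with a median of 16.6 in the other Control libraries. Line 1 lay far below all of them, by 13.5-fold (log2 fold change -3.76, SE 0.434, adjusted p = 0.0404). HR lines 3 (1.25 CPM) and 8 (0.987 CPM) were again on the low side, with lines 6 (12.3 CPM) and 7 (5.84 CPM) above them. With line as a random effect, *Kcns2* lost its call (adjusted p = 0.107), while *Kcnh2* held it (adjusted p = 0.000252).

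A pair of V2R genes in the cluster of chromosome 6 moved in opposite directions. *Vmn2r23* (123702670 to 123747657, plus strand) stood at 40.9 CPM in line 1 females and 36.2 in males, whereas the other Control libraries held 0.668 to 1.59 with a median of 0.86. The receptor was thus near the floor in all other Control lines and 39.6-fold higher in line 1 (log2 fold change 5.31, SE 0.255, adjusted p = 0.000441). *Vmn2r19* (123308333 to 123336537, plus strand) stood at 0.858 and 1.15 CPM in line 1, against 11.2 to 19.97 with a median of 13.97. It was 14.2-fold lower (log2 fold change -3.82, SE 0.321, adjusted p = 0.0116). Per length, the mean of *Vmn2r23* was 16.03 RPKM in line 1 and 0.429 in the other Control lines, and that of *Vmn2r19* 0.355 and 5.22 RPKM. In line 1 *Vmn2r23* therefore had the higher level of the pair, and in the other Control lines *Vmn2r19*.

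HR line 3 showed the arrangement of line 1, with *Vmn2r23* at 16.5 CPM in females and 11.3 in males and *Vmn2r19* at 0.85 CPM on average. HR lines 6, 7 and 8 held 1.19 to 1.43 CPM of *Vmn2r23* and 14.9 to 19.8 CPM of *Vmn2r19* on average, like the other Control lines. The 6 other *Vmn2r* genes tested in this cluster had smaller differences, and 0 of them were called. *Vmn2r20* was at 39.7 and 50.4 CPM against 19.2 to 28.4 (adjusted p = 0.185), *Vmn2r26* at 15.7 and 16.2 against 6.09 to 10.14 (adjusted p = 0.232) and *Vmn2r25* at 21.1 and 18.3 against 24.8 to 34.3 (adjusted p = 0.149). *Vmn2r22* was at 15.6 and 13.7 CPM against 8.05 to 14.2, and *Vmn2r24* (23.5 and 21.7 against 12.3 to 25.4) and *Vmn2r27* (2.49 and 2.76 against 1.66 to 5.39) lay within the range. Reads were kept only where they matched the reference without a mismatch and at 1 place, and 99.4% of the words of *Vmn2r23* and 95.7% of those of *Vmn2r19* occur in no other gene. Whether bases at which a line differs from the reference lowered either count was not tested.

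**Figure D2:**
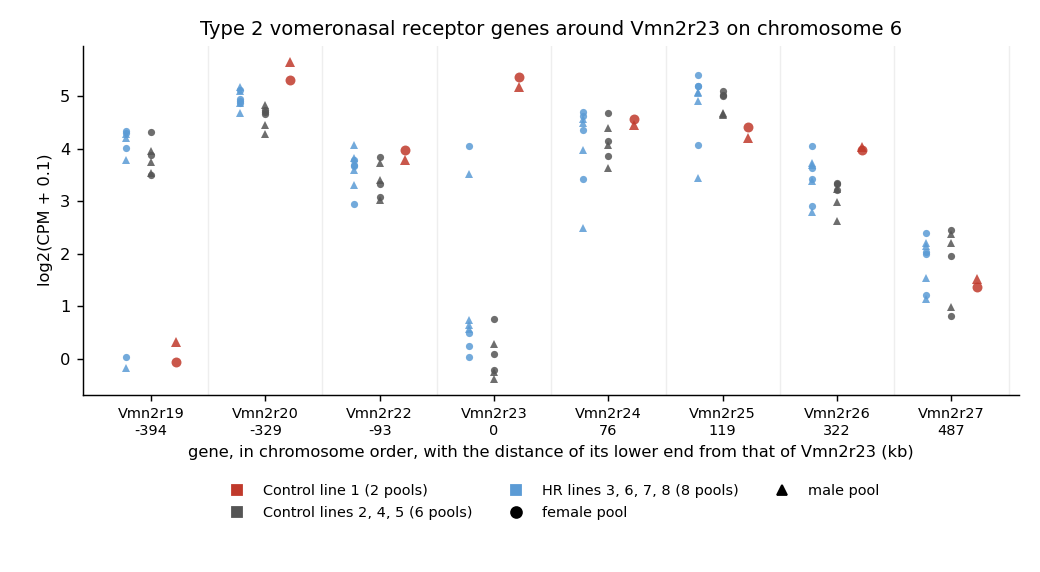
Expression as log2(CPM + 0.1) of the 8 tested *Vmn2r* genes of the chromosome 6 cluster, in order along the chromosome, with a point for each library, coloured by line 1, other Control lines and HR lines and shaped by sex. The line 1 points stand for 40.9 and 36.2 CPM at *Vmn2r23* and for 0.858 and 1.15 at *Vmn2r19*, and the HR points nearest to them at both genes are those of line 3.

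The promoters of the pair are shown to compare genes that moved in opposite directions. They are RefSeq reference sequences on GRCm38.p6, at chr6:123308083-123308382 for *Vmn2r19* and chr6:123702571-123702870 for *Vmn2r23*, both on the plus strand, with motif letters in capitals.

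Vmn2r19: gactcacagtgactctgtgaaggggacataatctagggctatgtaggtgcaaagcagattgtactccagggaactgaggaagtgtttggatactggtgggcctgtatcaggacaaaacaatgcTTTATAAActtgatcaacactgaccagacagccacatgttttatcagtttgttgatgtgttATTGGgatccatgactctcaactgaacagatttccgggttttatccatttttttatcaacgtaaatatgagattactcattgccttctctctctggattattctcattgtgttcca

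Vmn2r23: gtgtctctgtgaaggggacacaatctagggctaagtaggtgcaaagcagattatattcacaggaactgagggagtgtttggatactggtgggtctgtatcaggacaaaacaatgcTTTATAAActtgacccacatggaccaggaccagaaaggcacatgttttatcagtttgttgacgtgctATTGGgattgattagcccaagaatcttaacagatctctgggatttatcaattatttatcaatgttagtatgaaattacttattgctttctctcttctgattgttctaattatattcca

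Aligned to each other, they matched at 255 of 312 columns (81.7%). Each held TATAAA, found on both strands with overlapping matches, and CCAAT on the other strand. Of 32544 promoters, 13.6% held TATAAA and 37.4% held CCAAT. The same motifs thus stood before the RefSeq starts of the gene that was higher in line 1 and of the gene that was lower. The RefSeq start of *Vmn2r23* lies inside the gene as placed above, from 123702670, and so do these matches.

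On chromosome 19, a run of neighbouring genes stood higher in line 1 than in every other library. *Gif*, which encodes gastric intrinsic factor, the carrier for vitamin B12 uptake, stood at 8.29 CPM in line 1 females and 8.36 in males. These were 589 and 579 reads, against 0 to 3 reads in each of the 6 other Control libraries (8 in total). The fitted log2 fold change of 7.62 (SE 0.454, adjusted p = 0.00145) rests on those 8 reads and depends on the prior count of the fit. *Ms4a2*, the beta chain of the high-affinity IgE receptor of mast cells, lies 132031 bases before it and stood at 4.14 and 3.84 CPM, against 0.303 to 0.785 with a median of 0.527. It was 7.71-fold higher (log2 fold change 2.95, SE 0.321, adjusted p = 0.0329).

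Between them lie *Ms4a3*, a membrane protein gene of blood cells, and *Oosp2*, *Oosp1* and *Oosp3*, oocyte-secreted protein genes, which were looked at after the values of their neighbours were seen. *Ms4a3* had 81 reads in line 1 females and 71 in males and 0 in all 14 other libraries, which makes it at least 69.3-fold higher against a floor of 3 reads over the other Control group. *Oosp2* had 167 and 182 reads and *Oosp1* 97 and 102, with 0 in the other Control libraries, at least 159-fold and 90.7-fold higher against that floor. *Oosp3*, with 14 and 16 reads against 0, was too low to be tested, at least 13.7-fold higher. These genes were not called (adjusted p = 0.311 for *Ms4a3*, 0.230 for *Oosp2* and 0.282 for *Oosp1*). Over the 6 genes, from 11615523 to 11763447, line 1 held 1242 reads in females and 1216 in males, other Control libraries 7 to 30 and HR libraries 12 to 42. The genes on either side did not share this. *Ms4a6d* was at 1.60 and 1.31 CPM against 1.49 to 4.57 (adjusted p = 0.802) and *Mrpl16*, a mitochondrial ribosomal protein gene, at 17.8 and 18.9 against 13.4 to 21.96 (adjusted p = 0.985).

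**Figure D3:**
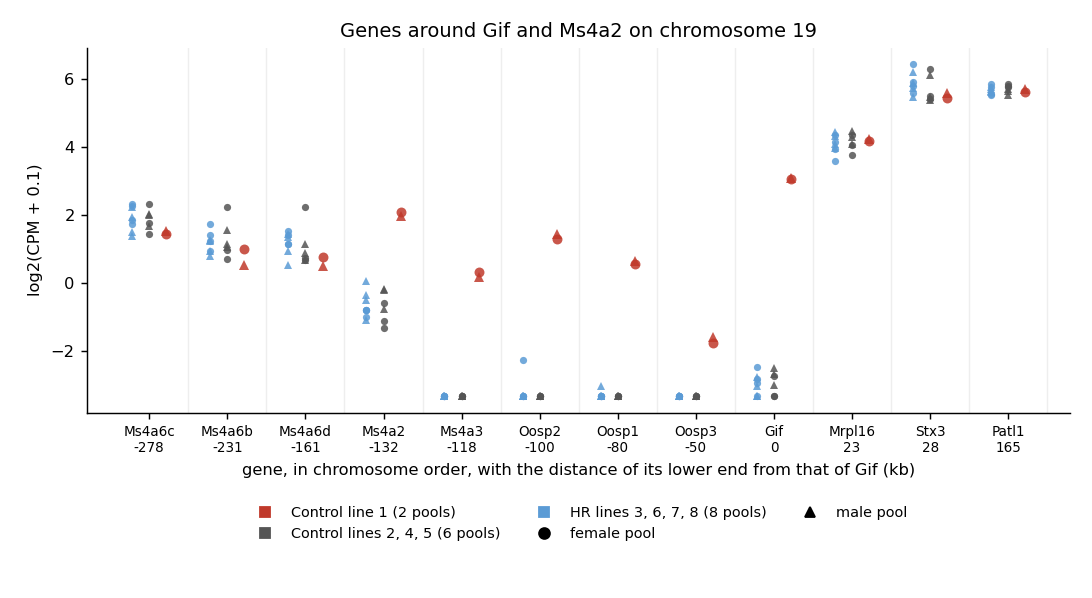
Expression of the genes around *Gif* on chromosome 19 as log2(CPM + 0.1), in order along the chromosome and each with its distance from *Gif* in kb, with a point for each library, coloured by line 1, other Control lines and HR lines and shaped by sex. The line 1 points lie above all others from *Ms4a2* to *Gif*, with 8.29 and 8.36 CPM at *Gif*, and among or close to the others at *Ms4a6d* and *Mrpl16*.

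The promoter of *Gif*, which RefSeq lists as *Cblif*, is shown because it belongs to a gene read in line 1 at over 500 reads per library and hardly elsewhere. It lies at chr19:11747309-11747608 on the plus strand (RefSeq, GRCm38.p6) and held none of the 4 motifs searched, which says only that these letters are not in this window.

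Gif: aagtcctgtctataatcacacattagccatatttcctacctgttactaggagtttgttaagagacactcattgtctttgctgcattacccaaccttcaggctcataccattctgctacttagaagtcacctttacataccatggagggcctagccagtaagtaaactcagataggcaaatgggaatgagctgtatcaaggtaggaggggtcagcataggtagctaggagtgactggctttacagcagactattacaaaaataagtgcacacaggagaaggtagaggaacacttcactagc

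Mast cell genes did not share the direction of *Ms4a2*. In a list of 8 mast cell genes, added after the values of *Ms4a2* were seen, the summed level was 33.9 CPM in line 1 females and 35.1 in males, below the 39.9 to 54.4 of other Control females and the 36.2 to 54.8 of other Control males. *Ms4a2* was the only 1 of the 8 with a higher level, and the median log2 difference of the list was -0.88, against 0.00485 over all genes. The mast cell receptor gene *Kit*, the tryptase gene *Tpsb2* and the chymase genes *Cma1* and *Mcpt4* had an unadjusted p under 0.05 on the low side, and none of them was called.

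*Miat* and *Ceacam2* were higher in both line 1 pools, with the larger value in females. *Miat*, a nuclear long noncoding RNA known from neurons (chromosome 5, 112213228 to 112229395), stood at 522 CPM in line 1 females and 127 in males, against 7.10 to 19.1 with a median of 11.6 in other Control libraries and 6.28 to 9.62 on average in the HR lines. No library of another line approached either value. The gene was 22.3-fold higher (log2 fold change 4.48, SE 0.432, adjusted p = 0.0218). Its female and male differences lay 1.78 apart on the log2 scale, and the interaction of sex with line 1 had a p of 0.0397 for *Miat* before adjustment and did not pass after it. *Ceacam2*, a cell adhesion molecule of the carcinoembryonic antigen family (chromosome 7, 25516042 to 25539857), was at 21.4 CPM in females and 9.87 in males, against 0 to 0.275. It was 80.2-fold higher (log2 fold change 6.33, SE 0.534, adjusted p = 0.0116), and its female and male differences lay 2.06 apart, the widest gap of the 17 genes. HR lines 6 (7.97 CPM) and 7 (3.64 CPM) also held *Ceacam2*, while lines 3 and 8 held 0.537 and 0.0128 CPM. *Ceacam2* overlaps *4732471J01Rik* on the other strand, only 61.5% of its words are its own, and its near copy *Ceacam1* was at 16.6 and 7.27 CPM in line 1 against 15.2 to 41.8 (log2 fold change -1.49, adjusted p = 0.592). Reads that matched more than 1 place were dropped by the authors, so reads that match both copies count for neither. Whether bases at which a line differs from the reference changed either count was not tested, and both values are uncertain to that extent.

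Across the genome, the interaction of sex with line 1 passed the test at 0 of 16880 genes in edgeR, with 98 at an unadjusted p under 0.05, and at 1 gene in DESeq2. The median gap between the female and male differences of the 17 called genes was 0.327 on the log2 scale. Each value of line 1 in a sex comes from 1 pool, and female and male counts were deposited separately. Sex within line 1, the pool and the deposit therefore cannot be told apart.

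**Figure D4:**
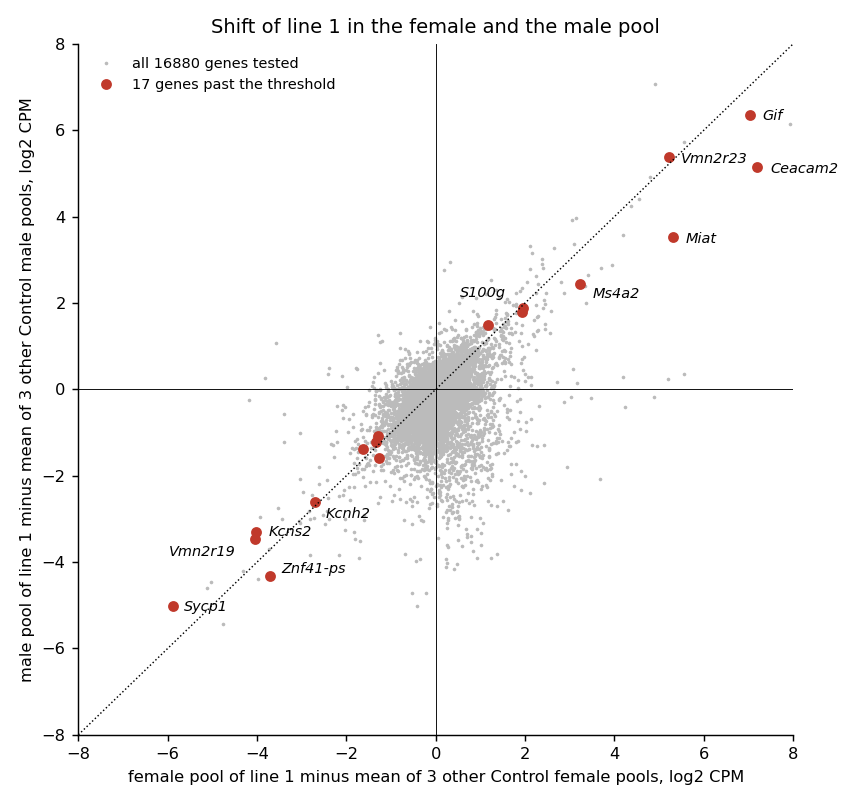
Log2 difference of line 1 from the mean of the 3 other Control lines in males against that in females, with a point for each tested gene, the 17 called genes in red, the more distant of them named, and a dotted line of equal differences. The called genes lie along the line, with *Ceacam2* (gap 2.06) and *Miat* (gap 1.78) farthest from it.

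Of the lower genes, *Sycp1* and *Znf41-ps* were at or close to 0 in line 1. *Sycp1* (chromosome 3, 102818499 to 102936100), which encodes the transverse filament of the synaptonemal complex of meiosis, had 0 reads in both line 1 libraries and 24 to 115 reads (0.943 to 3.87 CPM) in the other Control libraries. This is at least 103-fold lower against a floor of 3 reads over the line 1 libraries (adjusted p = 0.0224). It was also at 0 in HR lines 6 and 8, and at 3.86 and 1.27 CPM in lines 3 and 7. The RPKM tables list *Sycp1* at 0 in every Control library, so its call rests on the counts alone. *Znf41-ps*, a zinc finger pseudogene on chromosome 4, had 3 reads in line 1 females and 1 in males, against 1.01 to 1.67 CPM (log2 fold change -5.28, SE 0.52, adjusted p = 0.0218), and was at 0.0156 CPM or less in HR lines 6 and 7. Only 16.97% of its words are its own, which leaves its count uncertain.

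Both long noncoding RNAs that were lower in line 1 were lower by less than 3-fold. *4831440E17Rik* (chromosome 5) was at 14.7 and 13.9 CPM against 30.9 to 40.2 with a median of 33.6, which was 2.43-fold lower (log2 fold change -1.28, SE 0.112, adjusted p = 0.0127). Within 1 Mb of both this gene and *Kcnh2* lay *Prkag2os1*, *Galnt11*, *Nub1*, *Abcf2* and *Wdr86*, each with an unadjusted p under 0.05. Of 18 other genes tested within 1 Mb of *4831440E17Rik*, 3 lay above and 8 below the range in both sexes. These stand beside 11.2% and 7.19% of all genes, and 0 of the 18 were called. *4930570G19Rik* (chromosome 3) was at 6.92 and 7.03 CPM against 16.9 to 24.1, or 2.85-fold lower (log2 fold change -1.51, SE 0.156, adjusted p = 0.0252). HR lines 3 (11.9 CPM) and 6 (13.5 CPM) held the lower level of *4831440E17Rik*, and line 7 (5.23 CPM) that of *4930570G19Rik*.

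*Lyrm7* and *Sh3pxd2b*, both on chromosome 11, were lower too. *Lyrm7*, an assembly factor of the mitochondrial bc1 complex, was at 5.36 and 5.20 CPM against 11.3 to 16.9 (log2 fold change -1.44, SE 0.167, adjusted p = 0.0404), with HR lines 6 (4.73 CPM) and 7 (5.16 CPM) at the level of line 1. *Sh3pxd2b*, a scaffold protein of podosomes, was at 41.8 and 45.3 CPM against 84.0 to 118 with a median of 102. Its difference was the smallest of the 17, 2.29-fold (log2 fold change -1.20, SE 0.141, adjusted p = 0.0404), and no HR line approached it, since they held 87.4 to 95.9 CPM.

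Like *Ceacam2*, the higher genes *S100g*, *4931428L18Rik*, *Vmn2r23* and *Miat* overlap annotated genes on the other strand, and so do the lower genes *Kcnh2*, *Sycp1* and *Lyrm7*. *Miat* also overlaps 4 genes on its own strand, and *4931428L18Rik* 1. Whether the counting used the strand is not given in the sources used here. *S100g* (chromosome X), a calcium-binding protein that depends on vitamin D, was at 3.64 and 5.41 CPM against 0.769 to 1.67 (log2 fold change 1.93, SE 0.227, adjusted p = 0.0404), and HR lines 6 (4.12 CPM) and 8 (4.89 CPM) matched line 1. *4931428L18Rik* (chromosome 1) was at 15.5 and 18.8 CPM against 2.66 to 5.48, or 3.59-fold higher (log2 fold change 1.85, SE 0.216, adjusted p = 0.0404), with HR line 6 (9.59 CPM) nearest to it. *Vmn1r235* (chromosome 17, 21256411 to 21262881), the only V1R gene called, was at 92.1 and 105 CPM against 30.7 to 48.0 with a median of 41.0. It was 2.49-fold higher (log2 fold change 1.32, SE 0.161, adjusted p = 0.0476), and the HR lines stayed between 26.4 and 52.0 CPM on average. Per length, the mean of *Vmn1r235* was 61.1 RPKM in line 1 and 24.7 in the other Control lines, the highest line 1 level of the 3 called receptors. With line as a random effect it lost its call (adjusted p = 0.0770).

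The HR lines show whether the line 1 level of a gene also occurs outside the Control lines. At 5 of the 17 genes (*Gif*, *Miat*, *Ms4a2*, *Sh3pxd2b* and *Vmn1r235*) no HR line lay nearer to line 1 than to the mean of the other Control lines on the mean log2 CPM, at 4 genes 1 did, and at 8 genes 2 did. HR line 6 was the nearer at 7 genes, line 3 at 5, and lines 7 and 8 at 4 each. On linear CPM a line of intermediate level falls on the other side at *Kcnh2*, *Kcns2*, *Znf41-ps*, *Vmn2r23*, *Ceacam2* and *4931428L18Rik*. Against the 8 HR libraries, 40 of 16989 genes passed the test (0.235%), 18 higher and 22 lower in line 1. Both comparisons share the line 1 libraries. All 17 genes had the same direction in them, and 4 (*Gif*, *Miat*, *Ms4a2* and *Sh3pxd2b*) were called in both.

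The same test with each other Control line in place of line 1 called 20 genes for line 2 (0.118%), 30 for line 4 (0.178%) and 13 for line 5 (0.077%). The 17 genes of line 1 (0.101%) are within this span, whereas in DESeq2 line 1 had the fewest, 217 against 280, 368 and 426. Higher genes made up 8 of 17 in line 1, 15 of 20 in line 2, 12 of 30 in line 4 and 2 of 13 in line 5. A line-private gene was then defined, after values were seen, as one of at least 1 CPM at which both libraries of a line lay at least 2-fold past all 14 others. Line 1 had 10 such genes on the high side and 4 on the low side, against totals of 13, 16 and 6 in Control lines 2, 4 and 5 and 4 to 15 in the HR lines. Beside *Gif*, *Ms4a2*, *Ms4a3*, *Oosp1*, *Oosp2*, *Miat* and *Vmn2r23*, the high genes were *Slc26a5*, *Zgrf1* and *Lrit2*. *Lrit2* was at 5.71 and 6.93 CPM against 0.951 to 2.79 in all other libraries. On the low side, *Prss35*, a protease-like gene, was at 1.84 and 1.80 CPM against 4.38 to 17.9, *6030440G07Rik* at 2.03 and 2.31 against 7.06 to 29.0, and the olfactory receptor pseudogene *Olfr1372-ps1* at 5.54 and 4.24 against 11.3 to 32.1. The V1R gene *Vmn1r88* was the other low gene.

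A band of 20 genes, 11 higher and 9 lower, had an adjusted p from 0.05 to 0.10 and is described without being called. *Slc26a5*, which encodes prestin, the motor protein of outer hair cells, was at 20.4 and 23.8 CPM against 5.64 to 9.18 (log2 fold change 1.55, adjusted p = 0.0549). *Zgrf1*, a helicase gene, was at 14.9 and 13.6 CPM against 4.23 to 6.09. *Ush1c*, the hair cell scaffold harmonin, was at 5.88 and 4.83 CPM against 0.0513 to 0.761, and all 4 HR lines were nearer to line 1 on the mean log2 CPM, although line 6 was nearer to the other Control lines in CPM. The band held 4 receptors. *Vmn1r88* was at 0.0703 and 0.130 CPM against 0.847 to 2.05 (adjusted p = 0.0549), *Vmn2r62*, with 27.9% of words its own, at 0.155 and 0.173 against 2.32 to 6.62 (adjusted p = 0.0575), *Vmn1r1* at 22.7 and 23.6 against 9.01 to 11.9, and *Vmn1r209* at 8.62 and 9.63 against 3.40 to 4.56 (adjusted p = 0.0837). *2610305D13Rik* had 0 reads in line 1, at least 64.6-fold fewer than the other Control lines at a floor of 3 reads over the group, and *Zfp473*, a zinc finger gene, was at 1.08 and 0.924 CPM against 3.61 to 6.15 (adjusted p = 0.0549).

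Over the whole receptor repertoire, line 1 lay high more often than low. Of 343 receptor genes listed, 285 were tested and 3 called, 2 higher and 1 lower. Line 1 was above the other Control libraries in both sexes at 78 of the 285 (27.4%, beside 11.2% of all genes) and below at 14 (4.91%, beside 7.19%). The median log2 difference was 0.16, against 0.00485 over all genes. With all Control libraries thinned to the lowest total, an alternative chosen after seeing the data, 24.2% lay above, and with DESeq2 size factors 26.7%. V1R genes were above at 47 of 158 tested and below at 8, V2R genes at 30 of 122 and 6, and formyl peptide receptors at 1 of 5 and 0. The summed receptor level was 8707 CPM in line 1 females and 9269 in males, against 7172 to 8320 in other Control females and 6411 to 8709 in males. On totals without TMM factors, the female value of 8732 lay inside the other females' 7743 to 8747. Summed over the list of mature vomeronasal neuron markers, line 1 held 4343 and 5476 CPM, within the 2908 to 4631 of other Control females and the 4083 to 5640 of males. The log2 difference of that sum was 0.22, equal to the 0.22 of the summed receptors, and its part in the receptor differences was not tested.

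Of the 47 V1R genes above the range, 25 lay on chromosome 13, a cluster singled out after its values were seen. The starts of its 35 tested *Vmn1r* genes span 1.16 Mb. Line 1 was above the range in both sexes at 25 (71.4%, beside 11.2% of all genes) and below at 0 (beside 7.19%). Among those above it, 18 follow each other along the chromosome. A log2 difference above 0 was found for 32 of the 35, and the median was 0.67. An unadjusted p under 0.05 was found for 15, all higher, beside 6.62% of all genes, yet 0 were called. With DESeq2 size factors 24 were above, and with thinning 21 of 34. The summed level was 569 CPM in line 1 females and 639 in males, against 317 to 412 and 289 to 437 in other Control females and males. HR libraries held 377 to 486 CPM in females and 351 to 507 in males, so line 1 was the highest of the 8 libraries in each sex.

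Examples show the size of these differences. *Vmn1r218* was at 67.5 and 72.4 CPM against 13.9 to 34.8 (log2 fold change 1.59, adjusted p = 0.266), *Vmn1r204* at 4.16 and 3.58 against 0.741 to 1.95 (1.89, adjusted p = 0.142), *Vmn1r217* at 66.1 and 81.2 against 22.2 to 57.1 and *Vmn1r214* at 17.01 and 24.2 against 5.55 to 13.7. *Vmn1r221* (log2 fold change -1.42) and *Vmn1r223* (-1.85) went the other way and were not called.

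**Figure D5:**
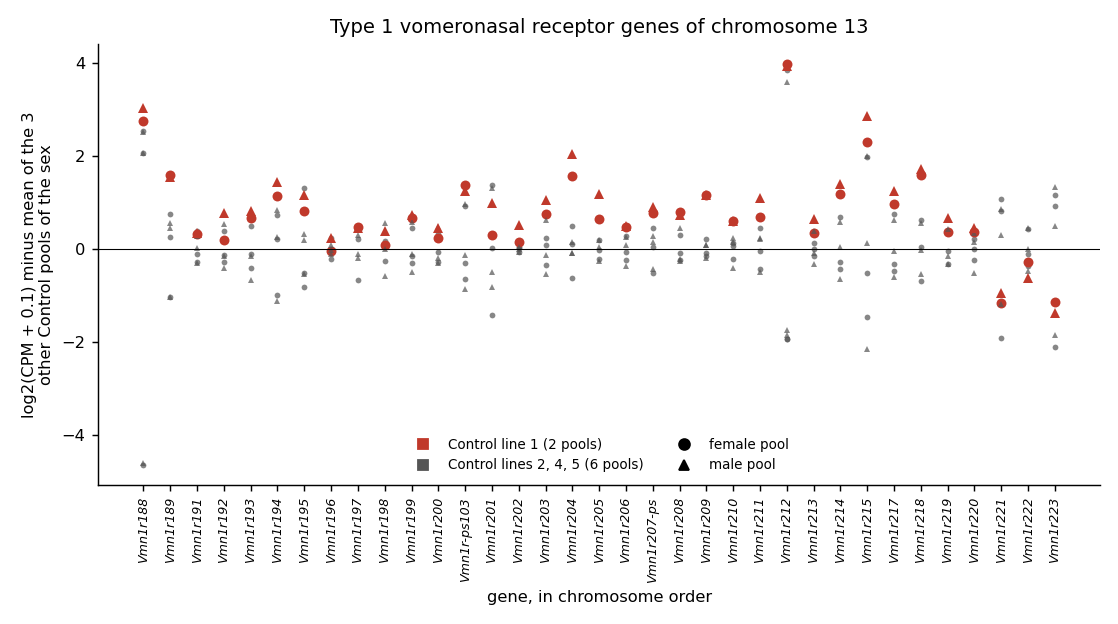
Log2(CPM + 0.1) minus the mean of the 3 other Control libraries of the sex for the 35 tested *Vmn1r* genes of chromosome 13, in order along the chromosome, with a point for each Control library, line 1 in red and shapes by sex. The line 1 points lie above 0 for most genes in both sexes, with a median fold change of 0.67 on the log2 scale, and *Vmn1r221* and *Vmn1r223* lie below it.

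Other clusters held smaller shares, to be read beside 11.2% above and 7.19% below over all genes. On chromosome 17, where *Vmn1r235* lies, 7 of 14 tested *Vmn1r* genes were above the range and 0 below, with a median log2 difference of 0.42. *Vmn1r236* was at 36.3 and 40.2 CPM against 10.62 to 30.0 and *Vmn1r225* at 14.5 and 18.2 against 6.99 to 11.3. On chromosome 6, 3 of 48 *Vmn1r* genes were above and 3 below, which is under the share of all genes on the high side, and on chromosome 7, 10 of 58 above (17.2%) and 5 below. Among V2R clusters, 4 of 8 genes were above on chromosome 10, 4 of 11 on chromosome 5, 7 of 32 on chromosome 17 and 9 of 51 on chromosome 7. The most abundant of those on chromosome 10, *Vmn2r81*, was at 271 and 238 CPM against 147 to 214.

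The H2-Mv family, which basal VNO neurons express with V2R receptors, also lay high in line 1 with 0 of 9 tested genes called. All 9 had a log2 difference above 0 with a median of 0.42, 5 were above the range in both sexes (55.6%, beside 11.2% of all genes) and 4 had an unadjusted p under 0.05 (beside 6.62%). Summed over the family, line 1 held 1323 CPM in females and 1326 in males, against 693 to 979 in other Control females, 826 to 1031 in other Control males and 521 to 1132 in HR libraries. *H2-M1* was at 322 and 321 CPM against 78.6 to 192 (log2 fold change 1.34, adjusted p = 0.287), *H2-M10.4* at 176 and 195 against 48.9 to 134 (1.03, adjusted p = 0.439) and *H2-M9* at 41.4 and 37.1 against 16.9 to 32.2.

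In the other lists of functions that bear on the VNO, 0 genes were called. Beside the 11.2% of all genes above the range and 7.19% below, 9 of 20 tested interferon-response genes were above (45.0%) and 1 below, with a summed level of 469 and 476 CPM against 359 to 444 in females and 334 to 408 in males, and 6 above and 1 below with thinning. Of 21 other genes of MHC and antigen presentation, 7 were above and 1 below. Of 43 cytochrome P450 genes 7 were above and 1 below, and of 36 conjugation enzyme genes 2 and 5. Of 46 olfactory receptors 6 were above (13.04%) and 4 below (8.70%), close to the shares of all genes. Zinc finger (*Zfp*) genes were above at 55 of 353 (15.6%) and below at 12. Of 13 transduction genes 2 were above, of 15 clock genes 2, and of 10 immediate early genes and 2 major urinary protein genes 0.

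Markers of other cells in the dissected tissue differed between pools and set a frame for all of these values. Gland genes summed to 57797 CPM in line 1 females and 11316 in males, against 20836 to 113290 in other Control females and 26866 to 211220 in males, so the line 1 male value lay below its range. The sum of the glial markers was below the range in both sexes (110 and 97.2 CPM against 121 to 159 and 129 to 171). Of the 6 glial markers, 3 were below the range in both sexes and 1 above it, and none of them was called. Squamous epithelium markers summed to 123 and 91.3 CPM against 98.8 to 910 and 93.9 to 210, and all 8 had a log2 difference below 0. Immune cell markers were at 121 and 81.8 CPM against 106 to 307 and 86.9 to 313, smooth muscle markers at 538 and 139 against 331 to 1500 and 231 to 1042, and progenitor markers at 453 and 548 against 298 to 512 and 416 to 566. Sustentacular cell markers (1782 and 1681 CPM against 1009 to 1470 and 1124 to 1879), ciliated cell markers (300 and 118 against 147 to 283 and 124 to 224) and markers of main olfactory neurons (544 and 630 against 512 to 567 and 488 to 638) were measured too. Cartilage and bone markers were at 82.97 and 72.1 CPM against 71.9 to 236 and 74.9 to 199, endothelial markers at 69.2 and 62.9 against 63.4 to 157 and 53.0 to 114, and skeletal muscle markers at 7.06 and 6.54 against 5.01 to 8.50 and 6.62 to 8.73. Adipocyte markers were at 3.97 and 1.69 CPM against 2.62 to 4.36 and 2.55 to 3.04, and erythroid markers at 2.97 and 7.40 against 3.85 to 6.61 and 4.92 to 8.37, with 4 of 7 listed at 0 in both line 1 libraries. The line 1 male pool lay below the other males in the gland, glial, squamous, immune, smooth muscle, ciliated, cartilage, skeletal muscle and adipocyte sums. On totals without TMM factors, its squamous, cartilage and skeletal muscle sums lay inside the range of the other males. These sums were 93.9, 74.1 and 6.72 CPM, against 82.5 to 212, 65.9 to 199 and 6.46 to 8.79. The line 1 female pool lay below the other females in the glial and erythroid sums and above them in the sustentacular and ciliated sums. Most single markers of the last 2 sums went the other way over both sexes. Of 6 sustentacular markers, 2 had a log2 difference above 0, with a median of -0.37, and of 11 ciliated markers 4 did, with a median of -0.081. The part of these cells in the differences of line 1 was not tested.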

How the data were processed

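The authors aligned single-end reads of 75 nucleotides to GRCm38 with STAR 2.6.1d, with no mismatch accepted and reads with several locations dropped. The count tables hold raw counts per gene as deposited, and the RPKM tables hold RPKM computed by the authors with Cuffdiff, scaled separately for each sex. The counting tool, its strand setting and the annotation are not given in the sources used here. Columns were joined by gene name into 24407 genes, 23957 of them with a GENCODE position, and 4 entries with a repeated name and 4 summary entries of the male table were left out. A spreadsheet had turned 23 names into dates, used as listed.

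Counts were tested in R 4.3.3 with edgeR 4.0.16 (quasi-likelihood test, sex and line 1 as terms, TMM over 16 libraries). Genes were filtered by filterByExpr with a minimum count of 10, and the Benjamini-Hochberg threshold was 0.05. Log2 CPM used a prior count of 2, and the fit kept the default prior count of edgeR. limma 3.58.1, DESeq2 1.42.0 and log2(RPKM + 1) gave alternatives, as did other filters, a line block, sums per line, all 16 libraries and leaving out libraries or lines. The authors' Cuffdiff test needs alignments and was not used. The test was run on simulated counts drawn independently for each library, with no effect of line. That check therefore does not cover libraries that share a line, as those here do. Chi-square per degree of freedom between libraries of a group was 40.8 to 780, so none was a copy of another. Depth was 15998552 to 70875276 counts per library, and errors given are standard errors between libraries.

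After group means were removed, the female and male libraries of a line correlated across genes at 0.426, 0.683, 0.320 and 0.505 in lines 1, 2, 4 and 5, and the titles give the line, so the line number pairs the libraries. Genes were named where they passed the test and lay outside the same-sex range in both pools with at least 1 CPM in the higher group, together with list members, *Omp*, *Gnao1*, *Gnai2*, *Trpc2* and *Vmn2r23*. Neighbours, line-private genes, mast cell genes, the band of adjusted p from 0.05 to 0.10, list genes that were not called, *Xist* and the chromosome 13 cluster were named after their values were seen. Line 1, the lists and the tests were chosen with earlier results of these data known. Promoters are from RefSeq, and 15 of the 17 called genes matched.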

Additional observations from a re-analysis of the deposited data

How the results depend on the processing

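Each log2 fold change of the 17 called genes was recomputed under up to 24 alternatives, and of 404 values 0 changed direction, 227 kept their call and 177 lost it. The calls of *Kcnh2* and *Vmn2r23* held in 22 of 24, that of *Gif* in 21 and that of *Vmn2r19* in 19, whereas that of *Vmn1r235* held in 6. *Kcnh2* lost its call with line sums (adjusted p = 0.110) and with all 16 libraries (0.253), and *Vmn2r23* with line sums and without the line 1 male library (0.0613).

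The 17 calls, all outside the same-sex range in both pools, became 16 with DESeq2 size factors, 17 without a filter and 16 at a minimum count of 50. DESeq2 called 217 (214 outside the range in both pools), limma-voom 38, all 16 libraries in 1 fit 27 (6 of the 17 among them), log2(RPKM + 1) 27, log2(RPKM + 0.1) 30, log2(RPKM + 1) without a filter 33, and line sums 0. The replicate block with line as a fixed term called 191 (155 outside the range in both pools), and with line as a random effect 12. With line as a fixed term, the contrast is itself between lines, so the spread between lines is not part of its error. By thinning, chosen after seeing the data, 18 were called, 15 of the 17 among them. The cause of these differences was not tested. Leaving out 1 library gave 1 to 10 calls, with 1 without the line 1 male library, 2 without the line 1 female library, and 6, 7 and 7 without the male and 7, 6 and 10 without the female library of lines 2, 4 and 5. Leaving out 1 other line gave 7 to 26 (10 without line 2, 7 without line 4 and 26 without line 5).

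DESeq2 called 1 gene for the interaction with sex, 230 against HR lines, and 280, 368 and 426 with lines 2, 4 and 5 in place of line 1. Line 1 was above the range of the other Control libraries at 1605 genes and below at 1374 with DESeq2 size factors, and at 1436 and 1326 with thinning, beside 1890 and 1213. The log2 difference of *Omp*, 0.10, was 0.25 without line 2 and turned to -0.024 without line 5. With the random-effect block, *Kcnh2*, *Vmn2r23*, *Gif*, *Vmn2r19*, *4831440E17Rik*, *4931428L18Rik* and *S100g* held their calls, and the other 10 had adjusted p from 0.0590 to 0.137. The line 1 libraries are the deepest of their sex, and reads with a mismatch were dropped by the authors, and their part in the differences was not tested beyond thinning.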
